A study of Rattus norvegicus with 10 samples.

Results

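The glycolysis and hypoxia response genes described here are 33 listed rat genes: the enzymes that turn glucose into lactate, the regulators that set the flux through them, the oxygen-sensing proteins around the hypoxia-inducible factor HIF, and other genes known to be induced when oxygen is low. A member was taken from the array features (probe sets) whose platform annotation gives exactly 1 symbol, and where a gene had several, from the one with the highest mean over the 10 arrays. By that rule 32 of the 33 were measured, out of 14218 genes with a symbol of their own on the array, and all 32 were tested. The missing member is Pkm, the pyruvate kinase of most tissues, whose only feature also carries the symbol of a pseudogene. That shared feature lay between 12.98 and 13.35 on the log2 intensity scale over the 10 arrays.

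The data are Affymetrix measurements of total RNA from HSC-2, a Wistar rat hepatic stellate cell line, grown in high-glucose DMEM with fetal bovine serum and antibiotics. The 5 lines were the untransfected cells, cells transfected with a scrambled control sequence, and 3 miR-146a overexpressing clones named S1, S4 and S5. The series text names the first 2 as controls. RNA of each line was taken at passages 42 and 43, so each group has 2 arrays. Each miR-146a line is 1 clone. The vector, its promoter, and whether the scrambled line is a clone or a pool are not stated in the sources used here. The titles of both untransfected arrays carry the words replicate 2, and nothing says that the 2 passages of any line were separate cultures. Where p-values rest on the 10 arrays, they therefore measure the spread between passages, which may be technical. Culture oxygen is also not given, and glucose use, lactate and HIF protein were not analysed here, so all values are RNA levels.

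Cells keep HIF low when oxygen is plentiful because prolyl hydroxylases (the Egln proteins) mark its alpha subunit for destruction. When oxygen falls, the alpha subunit persists, pairs with Arnt and binds short motifs near target genes, among them most glycolytic enzymes, glucose transporters, Pdk1, Bnip3, Vegfa and Adm. Hepatic stellate cells store retinoids beside the liver sinusoids, and their change into matrix-producing cells in culture and after injury is known to go with increased glycolysis.

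The sequences that frame the comparison are the overexpressed microRNA and the promoters of 4 members picked by their levels in lines or passages. The mature microRNA is shown because it is what the clones were made to express. It lies at chr10:28350053-28350074 on the minus strand of the rat assembly GRCr8 in RefSeq, and its seed (bases 2 to 8) is in capitals.
rno-miR-146a-5p: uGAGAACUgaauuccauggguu
The promoters are the 250 bases before the annotated RefSeq start, 5′ to 3′ on the gene's strand, with matches to the HIF core motifs ACGTG or GCGTG on either strand in capitals. CACGTG holds ACGTG on both strands, so that it counts as 2 overlapping matches. Pfkfb3 and Bnip3 are shown because they were higher in the untransfected line than in the clones, and Ldha and Eno1 because they were lower at passage 43 in every line. Neither Ldha nor Eno1 passed a main test between lines or passages. Pfkfb3 was read at chr17:71944683-71944932 (plus strand), Bnip3 at chr1:203154963-203155212 (minus strand), Ldha at chr1:106507842-106508091 (plus strand) and Eno1, at the first of its listed starts, at chr5:166002617-166002866 (plus strand).
Pfkfb3: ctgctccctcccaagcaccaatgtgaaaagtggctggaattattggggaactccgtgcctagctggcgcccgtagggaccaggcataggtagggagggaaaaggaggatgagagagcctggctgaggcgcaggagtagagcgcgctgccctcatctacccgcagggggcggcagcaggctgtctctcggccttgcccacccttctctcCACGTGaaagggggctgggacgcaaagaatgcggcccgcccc
Bnip3: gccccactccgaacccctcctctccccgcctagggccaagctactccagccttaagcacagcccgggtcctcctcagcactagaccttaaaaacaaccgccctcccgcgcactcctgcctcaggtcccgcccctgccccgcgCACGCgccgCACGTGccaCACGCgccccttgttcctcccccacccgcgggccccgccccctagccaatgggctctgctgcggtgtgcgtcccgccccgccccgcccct
Ldha: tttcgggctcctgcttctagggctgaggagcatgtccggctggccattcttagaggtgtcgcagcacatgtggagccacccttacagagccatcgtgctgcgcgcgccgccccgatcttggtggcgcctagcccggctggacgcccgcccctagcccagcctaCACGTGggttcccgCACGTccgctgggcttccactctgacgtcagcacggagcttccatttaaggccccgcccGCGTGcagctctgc
Eno1: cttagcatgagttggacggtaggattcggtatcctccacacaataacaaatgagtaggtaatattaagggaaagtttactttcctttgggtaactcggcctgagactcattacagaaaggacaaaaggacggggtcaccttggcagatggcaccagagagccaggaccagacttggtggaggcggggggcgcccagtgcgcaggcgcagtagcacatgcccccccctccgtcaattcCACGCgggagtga
The stretch before Bnip3 and that before Ldha each held 4 matches, the one before Pfkfb3 held 2 and the one before Eno1 held 1. RefSeq windows of 300 bases (250 before the start and 50 after it) were found for 31 of the 33 members, all but Pgk1 and Ndrg1. Counting the first window of each gene, 22 of these 31 (71.0%) held at least 1 of the motifs, against 42.9% of 27457 genes. ACGTG alone was found in 18 of 31 windows (58.1%, against 19.7% of all genes) and GCGTG in 16 (51.6%, against 31.1%). Neither was found in the first windows of Adm, Egln3, Vegfa, Tpi1, Hk1, Hk2, Aldoa, Pkm and Kdm3a. Of these, Egln3 and Adm had the largest member differences called between lines, and Vegfa and Tpi1 were called between passages. A later listed start of each of Hk1, Aldoa and Kdm3a held 1. A match is a run of letters and not a measured binding site, and nothing about HIF follows from a window without one. The members were listed as glycolysis and hypoxia genes, so their higher motif shares describe the list and are no result about these lines.

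The labelled cell type was checked first. Of the list of 18 stellate cell markers, Vim lay between 14.37 and 14.60 and Col1a1 between 14.13 and 14.56 on the 10 arrays, and Col1a2, Col3a1 and Sparc were above 13 on each. The contractile markers set the scrambled line apart: Acta2 was at 10.13 and 10.22 there and at 12.19 to 13.23 on the other 8 arrays, and Tagln at 12.11 and 11.81 against 13.31 to 14.15. Des lay between 6.43 and 7.55 and Lum between 8.65 and 12.54. Gfap, Reln, Cygb and Ngfr of the same list were all under 6 on each array. Lrat, the retinol-esterifying enzyme of quiescent stellate cells, was at the lowest deposited value on all 10 arrays. The lists of other cell types were mixed. Epcam and Cdh1 of bile duct epithelium, Adgre1 of macrophages and Lyve1 of endothelium were at the lowest value on every array, but Spp1 lay between 10.38 and 12.20, Krt8 between 5.92 and 8.55, Cd14 between 8.82 and 9.48, Egfl7 between 8.31 and 8.72 and Tek between 6.64 and 7.63. Of the hepatocyte list, Alb, the main hepatocyte product, lay between 4.94 and 5.26, but Cyp2e1 between 5.74 and 6.48 and Ttr between 7.23 and 7.69. The lowest deposited value is 20 intensity units, or 4.32 on the log2 scale, and values at it have no order. The summed intensity of 9 hepatocyte markers was 487 and 561 on the untransfected arrays, 507 to 534 on the scrambled arrays and 498 to 537 on the clone arrays. In the same order the sums were 3438 and 2789, 1580 to 1703 and 1789 to 5227 for 8 biliary markers, 1124 and 945, 1036 to 1101 and 1018 to 1194 for 10 macrophage and leukocyte markers, 679 and 662, 660 to 716 and 582 to 644 for 7 endothelial markers, and 136905 and 147163, 106449 to 106456 and 125612 to 133700 for the stellate markers. Between the clones and the scrambled line 4 of 17 tested stellate markers were called by limma (Acta2 and Tagln higher, Des and Pdgfra lower in the clones). There 1 of 9 tested macrophage markers was lower, and of all features 3.93% were higher and 2.97% lower. Between the clones and the untransfected line 1 of 17 stellate markers (Acta2, lower) and 1 of 6 tested biliary markers (Krt8, higher) were called. Of all features, 4.12% were higher and 4.5% lower in that comparison. Between the control lines 2 of 17 stellate markers (Acta2 and Tagln) were lower in the scrambled line and 1 of 9 macrophage markers was higher. The shares of all features were 3.87% lower and 2.23% higher. The part of these differences in the results was not tested. Median intensities of the arrays ran from 97.7 to 103.7 units. Degradation of RNA was read from control probes along Gapdh: their 3′ end exceeded their 5′ end by 0.21 and 0.32 (log2) on the untransfected arrays and by 0.02 to 0.10 on the other 8. The same difference in actin was 0.89 and 0.85 on the untransfected arrays and 0.47 to 0.67 on the others. In the hexokinase control it was 1.01 and 1.04 on the untransfected arrays and 0.92 to 1.13 on the others, so the untransfected line stood apart in Gapdh and actin but not in hexokinase. The part of this in the results on that line was not tested.

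**Figure D1:**
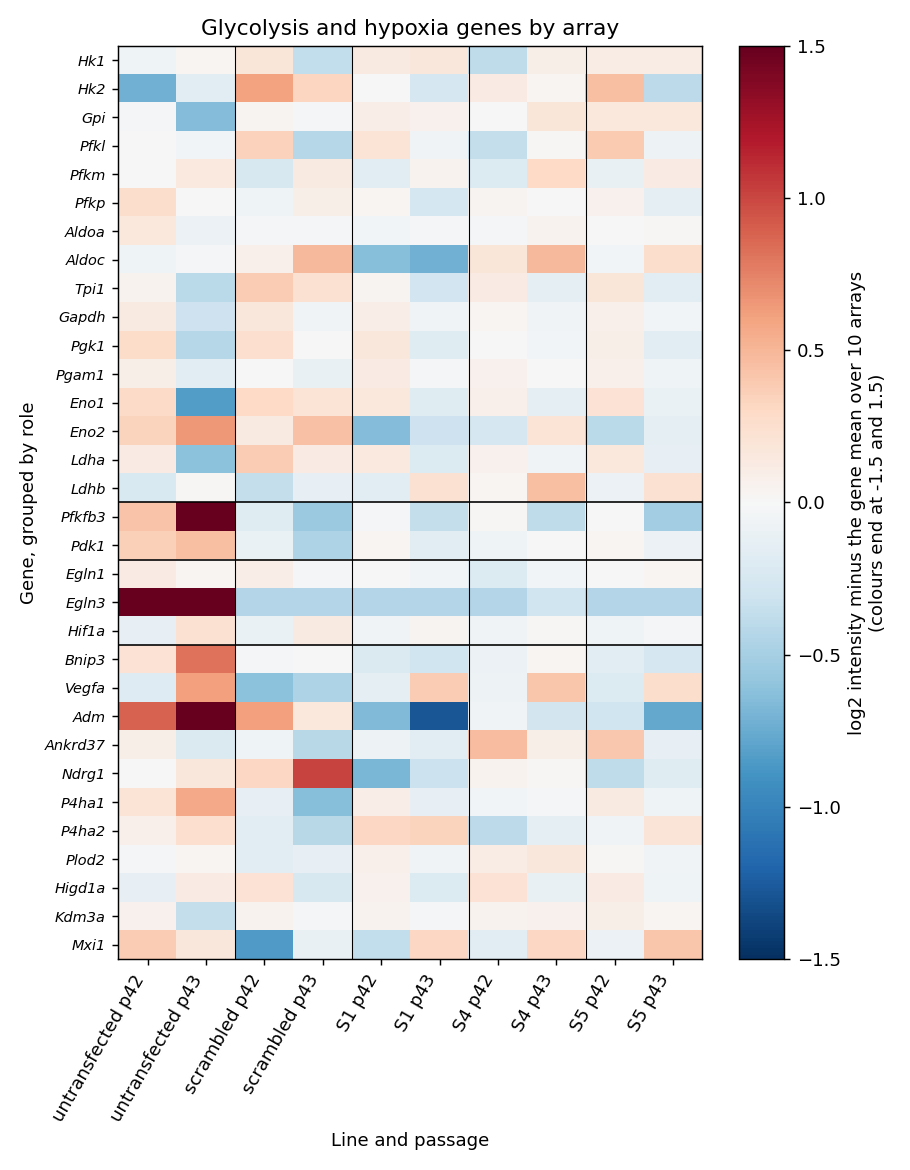
Log2 intensity of the 32 measured genes (rows, grouped into glycolytic enzymes, flux regulators, oxygen sensing and other hypoxia targets) on the 10 arrays (columns), as the difference from each gene's mean over the arrays, with colours ending at -1.5 and 1.5. The untransfected columns are red for Egln3, Adm, Pfkfb3 and Bnip3, and at passage 43 blue for Eno1, Ldha and Gpi.

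The first question was whether the clones differed from the control lines as a group. None of the 32 members passed the test on line means (3 clones against 2 control lines, limma with Benjamini-Hochberg adjusted p under 0.05 over 27526 features), where 0.603% of all features were called higher and 0.294% lower. At an unadjusted p under 0.05 there were 4 members, against 15.4% of all features, and the lowest adjusted p of a member was 0.164, for Eno2. In RNA from whole cultures, a lower level in each cell and fewer cells with the transcript cannot be told apart. The median difference of the members was -0.01, as was that of all features. Only Adm had its 6 clone arrays all below the 4 control arrays, an arrangement found in 3.44% of all features. No member had them all above, which 4.05% of all features did. The 2 control lines differed from each other in several members, and the count depended on which of them stood for the controls. Without the scrambled line, 6 of 32 members were called on the line means (Gpi higher, Pfkfb3, Pdk1, Bnip3, Egln3 and P4ha1 lower), while the count over all features went from 247 to 2969 of 27526. Without the untransfected line 1 member was called (Vegfa, higher by 0.64, adjusted p = 0.0399 in limma), beside 1693 of all features. In both of these fits the single control line is assumed to vary like the clones.

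Set against each control line on the 10 arrays, the clones gave different pictures. Against the untransfected line 6 members were called lower and none higher, where 4.5% of all features were called lower and 4.12% higher. Those 6 were Egln3, Adm, Pfkfb3, Eno2, Bnip3 and Pdk1. Against the scrambled line 1 member, Ndrg1, was called lower and none higher, where the shares of all features were 2.97% lower and 3.93% higher. The scrambled line was itself lower than the untransfected line in 2 members, Egln3 and Pdk1, and higher in none, where 3.87% of all features were lower and 2.23% higher. These 3 comparisons share arrays, so their values are given side by side and support nothing jointly. With no filter on low values, only Egln3 and Adm passed against the untransfected line, only Egln3 in the scrambled line, and Ndrg1 did not pass against the scrambled line (adjusted p = 0.0819).

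The passage numbers paired the samples, and a term for passage moved 2 of these counts. With it, 5 members differed between the clones and the scrambled line (Ndrg1, Eno2 and Tpi1 lower, Ldhb and Vegfa higher), where 4.95% of all features were called lower and 6.51% higher. Between the scrambled and the untransfected line, 5 members were then called (Tpi1 higher, Egln3, Pdk1, Vegfa and P4ha1 lower), where 7.46% of all features were lower and 5.63% higher. Against the untransfected line the clones kept the same 6 calls.

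**Figure D2:**
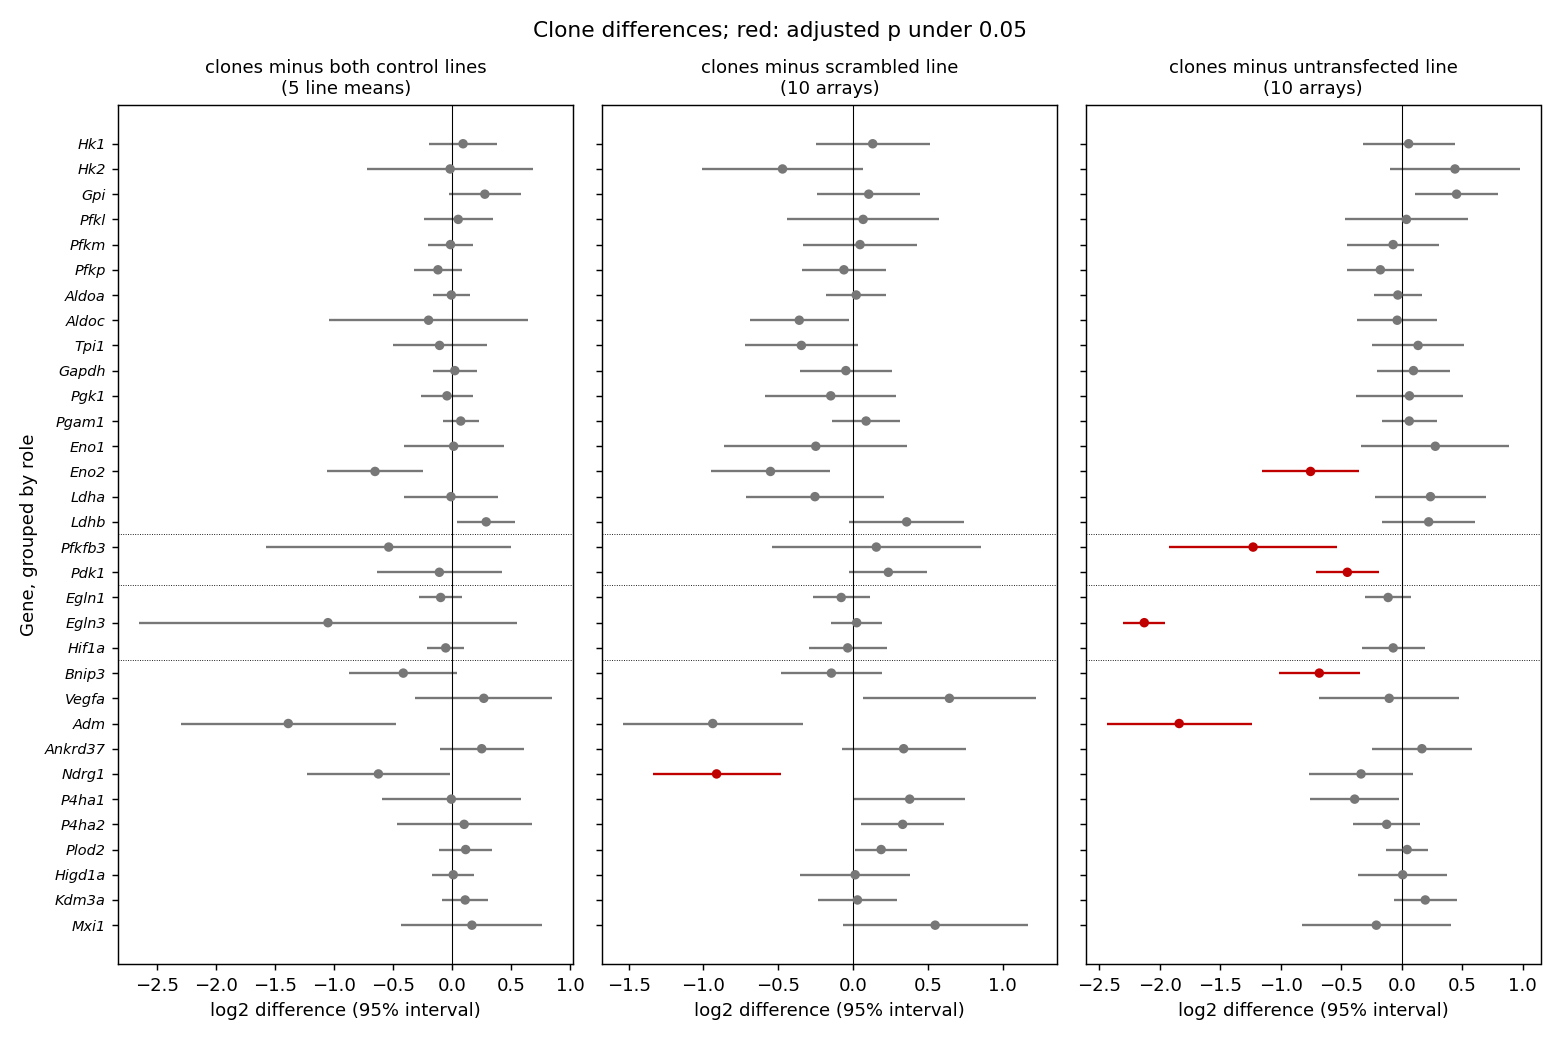
Difference of the clones from both control lines (5 line means), from the scrambled line and from the untransfected line (10 arrays each) for the 32 genes, on the log2 scale with 95% intervals, red where the limma adjusted p is under 0.05; the horizontal scale differs between panels. Red points are Eno2, Pfkfb3, Pdk1, Egln3, Bnip3 and Adm against the untransfected line and Ndrg1 against the scrambled line, all below 0.

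Among the 3 oxygen-sensing genes, only Egln3 was called between lines. Egln3, the prolyl hydroxylase that HIF itself strongly induces, was measured at 6.47 and 6.48 on the untransfected arrays (passage 42 and then 43, the order used throughout). Both scrambled arrays were at the lowest deposited value, as were 5 of the 6 clone arrays, with S4 at passage 43 at 4.47. The untransfected line was thus the only one in which Egln3 was clearly above that value, and the groups did not overlap. Egln3 was lower in the clones than in the untransfected line, at -2.13 (SE 0.07, limma adjusted p = 1.72e-05), a difference of at least 4.37-fold because the clone side rests on the floor. In the scrambled line it was at least 4.45-fold lower than in the untransfected line (-2.15, SE 0.09, limma adjusted p = 6.79e-05). These SEs reflect the floor and are too small. The stricter filter on low values removes this gene.

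The alpha subunit Hif1a was at 11.48 and 11.83 in the untransfected line, 11.51 and 11.74 in the scrambled line, 11.56 and 11.65 in S1, 11.56 and 11.63 in S4 and, in S5, 11.54 and 11.58. Its lines overlapped, and the clones differed from the untransfected line by -0.07 (95% interval -0.33 to 0.19) and from the scrambled line by -0.04 (95% interval -0.30 to 0.23). Egln1, the main oxygen sensor among the prolyl hydroxylases, was at 9.43 and 9.34 in the untransfected line, 9.41 and 9.30 in the scrambled line, 9.32 and 9.27 in S1, 9.11 and 9.28 in S4 and, in S5, 9.32 and 9.35. Its differences from the untransfected line (-0.11, 95% interval -0.30 to 0.08) and from the scrambled line (-0.08, 95% interval -0.27 to 0.11) did not pass the test either. In a second feature of Egln1 these differences were 0.05 and -0.02. That feature was at 7.19 and 7.75 in the untransfected line and so did not repeat the passage change of the first.

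The regulators of glycolytic flux were highest in the untransfected line. Pfkfb3, which makes the main activator of phosphofructokinase, was at 8.15 and 9.31 in the untransfected line, 7.53 and 7.16 in the scrambled line, 7.68 and 7.35 in S1, 7.73 and 7.33 in S4 and, in S5, 7.71 and 7.19. Both untransfected arrays were above all 8 others, and passage 43 stood far above passage 42. In the clones Pfkfb3 was 2.34-fold lower than in the untransfected line (-1.23, SE 0.30, limma adjusted p = 0.0456). The scrambled line differed from the untransfected line by -1.38, which did not pass (adjusted p = 0.0698), and from the clones by a difference (clones minus scrambled) of 0.16 (95% interval -0.54 to 0.85). The other 2 features of Pfkfb3 did not show it: one lay between 7.56 and 7.88 over the 10 arrays and the other between 5.09 and 5.59. Without the untransfected array of passage 43 the difference from the clones was -0.65 (adjusted p = 0.281). Leaving out any of the 8 arrays of the other lines also lost the call, at -1.32 to -1.14, and so did adding 20 to each value before log2 (-1.15, adjusted p = 0.0564).

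Pdk1, the kinase that shuts pyruvate dehydrogenase and so keeps pyruvate out of the mitochondria, was at 8.98 and 9.07 in the untransfected line, 8.52 and 8.16 in the scrambled line, 8.65 and 8.46 in S1, 8.56 and 8.61 in S4 and, in S5, 8.64 and 8.52. The untransfected arrays were again above all others. Pdk1 was lower in the scrambled line (-0.69, SE 0.14, limma adjusted p = 0.0301) and in the clones (-0.45, SE 0.11, limma adjusted p = 0.0490). The call against the clones held without either scrambled array and was lost without any other array, at -0.50 to -0.40, with the highest adjusted p (0.24) without the untransfected array of passage 43. The call for the scrambled line was lost without its own passage 43 array (-0.51), without the untransfected array of passage 43 (-0.64), or without any 1 clone array (-0.69 in each). A second feature of Pdk1 gave another order: it was at 8.48 and 8.27 in the untransfected line and between 8.44 and 8.60 in the clones.

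Of the 16 measured glycolytic enzymes, only Eno2 was called between lines when all 10 arrays entered without the passage term, and it was lowest in the clones. Eno2, the enolase known from neurons, was at 10.15 and 10.47 in the untransfected line, 9.96 and 10.26 in the scrambled line, 9.16 and 9.50 in S1, 9.57 and 10.02 in S4 and, in S5, 9.41 and 9.67. Only S4 at passage 43 reached the lower of the control arrays. Eno2 was 1.69-fold lower in the clones than in the untransfected line (-0.75, SE 0.17, limma adjusted p = 0.0364). Against the scrambled line the difference was -0.55 and passed only with the passage term (adjusted p = 0.112 without it and 0.00408 with it). The call against the untransfected line held without S4 at passage 43 and was lost without any other 1 array, at -0.92 to -0.59, the smallest without the untransfected array of passage 43 (adjusted p = 0.253). In quantile-normalised values it was -0.72 (adjusted p = 0.0535).

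Eno1, the enolase of most tissues, was at 13.62 and 12.49 in the untransfected line, 13.63 and 13.54 in the scrambled line, 13.48 and 13.15 in S1, 13.40 and 13.19 in S4 and, in S5, 13.55 and 13.23. The untransfected array of passage 43 was the lowest of the 10. Ldha, the lactate dehydrogenase subunit that favours lactate, was at 13.22 and 12.48 in the untransfected line, 13.47 and 13.21 in the scrambled line, 13.24 and 12.88 in S1, 13.15 and 13.03 in S4 and, in S5, 13.25 and 12.97. Here too the untransfected array of passage 43 was lowest, and the lines otherwise overlapped. The clones differed from the untransfected line by 0.28 in Eno1 (95% interval -0.33 to 0.89) and by 0.24 in Ldha (95% interval -0.22 to 0.70), neither of which passed. Without the untransfected array of passage 42, Eno1 was called higher than in the untransfected line both in the clones (0.84, limma adjusted p = 0.0351) and in the scrambled line (1.09, limma adjusted p = 0.0257).

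Gapdh, which oxidises glyceraldehyde phosphate, was at 14.03 and 13.57 in the untransfected line, 14.05 and 13.83 in the scrambled line, 13.99 and 13.83 in S1, 13.91 and 13.83 in S4 and, in S5, 13.97 and 13.85. Pgk1, the next enzyme of the pathway and one of its ATP-making steps, was at 13.39 and 12.69 in the untransfected line, 13.38 and 13.13 in the scrambled line, 13.29 and 12.94 in S1, 13.13 and 13.09 in S4 and, in S5, 13.21 and 12.97. Both repeated the pattern of Eno1 and Ldha, with the lowest of the 10 values on the untransfected array of passage 43. Gapdh was taken from the 3′ control probes of the array, and the clones differed from the untransfected line by 0.10 in it (95% interval -0.21 to 0.40) and by 0.06 in Pgk1 (95% interval -0.38 to 0.50). In the 5′ and middle control probes of Gapdh the same difference was larger, at 0.30 and 0.24.

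Tpi1, the triose phosphate isomerase, was at 12.48 and 12.03 in the untransfected line, 12.81 and 12.66 in the scrambled line, 12.47 and 12.15 in S1, 12.55 and 12.29 in S4 and, in S5, 12.61 and 12.26. Both scrambled arrays were above all 8 others. With the passage term Tpi1 was higher in the scrambled than in the untransfected line (0.48, limma adjusted p = 0.0253) and lower in the clones than in the scrambled line (-0.35, limma adjusted p = 0.0389), and without it neither passed (0.208 and 0.299). Ldhb, the lactate dehydrogenase subunit that favours pyruvate, was at 9.57 and 9.80 in the untransfected line, 9.43 and 9.67 in the scrambled line, 9.63 and 10.02 in S1, 9.82 and 10.24 in S4 and, in S5, 9.71 and 10.02. The clone arrays were higher than the control arrays of the same passage in each case. That difference from the scrambled line was 0.36 and passed with the passage term (limma adjusted p = 0.0247) but not without it (0.289).

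Hk2, the inducible hexokinase, was at 6.21 and 6.75 in the untransfected line, 7.53 and 7.25 in the scrambled line, 6.93 and 6.67 in S1, 7.04 and 6.96 in S4 and, in S5, 7.37 and 6.53. The clone arrays overlapped those of each control line. Both scrambled arrays were above both untransfected arrays, but that difference (0.91, SE 0.28) did not pass (limma adjusted p = 0.108). Aldoc, the aldolase known from brain, was at 7.33 and 7.38 in the untransfected line, 7.48 and 7.88 in the scrambled line, 6.76 and 6.68 in S1, 7.58 and 7.89 in S4 and, in S5, 7.36 and 7.67. S1 was the lowest line and the other clones were at the level of the controls. No member was called between the clones (limma F test, 0 of 32, against 0.0327% of all features). At an unadjusted p under 0.05 in that test there were 2 members, against 2.72% of all features. The remaining 7 enzymes were Hk1, Gpi, Pfkl, Pfkm, Pfkp, Aldoa and Pgam1. On the features used, their clone differences lay between -0.18 and 0.45 from the untransfected line and between -0.06 and 0.13 from the scrambled line. Other features of Hk1 differed from the untransfected line by -0.08 to 0.56 in the clones, and those of Pfkm by 0.38 and -0.05. The largest difference on the features used was that of Gpi, the phosphoglucose isomerase, at 0.45 (limma adjusted p = 0.109). It passed without the untransfected array of passage 42 (0.76, limma adjusted p = 0.00805).

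Of the 11 other hypoxia targets, Adm and Bnip3 were lower in the clones than in the untransfected line and Ndrg1 lower than in the scrambled line. Adm encodes adrenomedullin, a vasodilator peptide. It was at 9.93 and 10.73 in the untransfected line, 9.66 and 9.20 in the scrambled line, 8.38 and 7.77 in S1, 8.99 and 8.78 in S4 and, in S5, 8.75 and 8.28. The untransfected line was highest, the scrambled line came next and all clone arrays were below both. Adm was 3.58-fold lower in the clones than in the untransfected line (-1.84, SE 0.26, limma adjusted p = 0.00609), and this was lost without the untransfected array of passage 43 (-1.44, adjusted p = 0.0767) but not without any other 1 array. Against the scrambled line the difference was -0.94 (adjusted p = 0.0793), and between the control lines (scrambled minus untransfected) -0.90 (adjusted p = 0.144). The clone mean was 8.49 ± 0.41 (SD, n = 3 lines) and the control mean 9.88 ± 0.64 (SD, n = 2 lines). On these line means the difference was -1.39 (SE 0.35, limma adjusted p = 0.181), and with the line as a random block over 10 arrays it passed (limma adjusted p = 0.0293). That fit set 1 correlation between the passages of a line for all features, 0.05. It thus counted the 2 arrays of a line as nearly independent, and the test on line means is the one that treats the line as the replicate.

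Bnip3, a receptor for the removal of mitochondria, was at 11.31 and 11.91 in the untransfected line, 11.06 and 11.08 in the scrambled line, 10.88 and 10.80 in S1, 11.00 and 11.13 in S4 and, in S5, 10.92 and 10.84. Both untransfected arrays were above all 8 others. In the clones Bnip3 was 1.60-fold lower than in the untransfected line (-0.68, SE 0.14, limma adjusted p = 0.0291). The call held without the untransfected array of passage 42 (-0.98) and was lost without any other 1 array, the smallest difference being -0.38 without the untransfected array of passage 43. Ndrg1, a stress-induced gene, was at 8.16 and 8.33 in the untransfected line, 8.46 and 9.17 in the scrambled line, 7.47 and 7.83 in S1, 8.21 and 8.18 in S4 and, in S5, 7.77 and 7.97. The scrambled arrays were the highest, and S1 was the lowest line by its mean. Ndrg1 was 1.88-fold lower in the clones than in the scrambled line (-0.91, SE 0.19, limma adjusted p = 0.0252), and -0.34 from the untransfected line (adjusted p = 0.321). The call held without the scrambled array of passage 42 (-1.27) or S1 at passage 43 (-0.97) and was lost without any other 1 array, down to -0.56 (adjusted p = 0.152) without the scrambled array of passage 43. A second feature of Ndrg1 lay closer together, at 7.43 and 7.60 in the scrambled line, 7.05 and 7.48 in the untransfected line and 6.85 to 7.37 on the clone arrays.

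Vegfa, the angiogenic growth factor, was at 10.76 and 11.56 in the untransfected line, 10.34 and 10.49 in the scrambled line, 10.82 and 11.33 in S1, 10.88 and 11.36 in S4 and, in S5, 10.75 and 11.21. Both scrambled arrays were below all 8 others. The clones differed from the scrambled line by 0.64 (adjusted p = 0.203), which passed with the passage term (limma adjusted p = 0.0141). They differed from the untransfected line by -0.10 (95% interval -0.68 to 0.48). A second feature of Vegfa did not repeat the order of the arrays. In it the untransfected array of passage 42 was lowest, at 8.33, below 8.47 and 8.44 in the scrambled line. Mxi1, an antagonist of Myc, was at 9.65 and 9.43 in the untransfected line, 8.41 and 9.15 in the scrambled line, 8.89 and 9.58 in S1, 9.09 and 9.58 in S4 and, in S5, 9.17 and 9.68. The scrambled line was lowest at either passage, and no difference between lines passed. Ankrd37, a small ankyrin repeat protein, was at 6.35 and 6.06 in the untransfected line, 6.21 and 5.86 in the scrambled line, 6.19 and 6.12 in S1, 6.74 and 6.36 in S4 and, in S5, 6.68 and 6.14, with overlapping lines.

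Of the other members, P4ha1 and P4ha2, catalytic subunits of the collagen prolyl hydroxylase, and Plod2, the lysyl hydroxylase of collagen crosslinks, all had their lowest line mean in the scrambled line. P4ha1 ranged from 11.80 to 13.01, P4ha2 from 10.58 to 11.33 and Plod2 from 12.58 to 12.91 over the 10 arrays. P4ha1 differed between the scrambled and the untransfected line by -0.77 (adjusted p = 0.0618), which passed with the passage term (limma adjusted p = 0.0403). Higd1a, a small protein of the inner mitochondrial membrane, ranged from 10.76 to 11.22 and Kdm3a, a histone demethylase, from 8.01 to 8.46, and neither was called between lines on all 10 arrays. Without the untransfected array of passage 42, Kdm3a was called higher in the clones (0.40, limma adjusted p = 0.0282, against 0.19 with it) and in the scrambled line (0.38, limma adjusted p = 0.0484) against the untransfected line. Over all 32 members, the highest line mean was in the untransfected line for 14 (43.8%, against 30.3% of all features) and the lowest in the scrambled line for 11 (34.4%, against 26.5%).

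**Figure D3:**
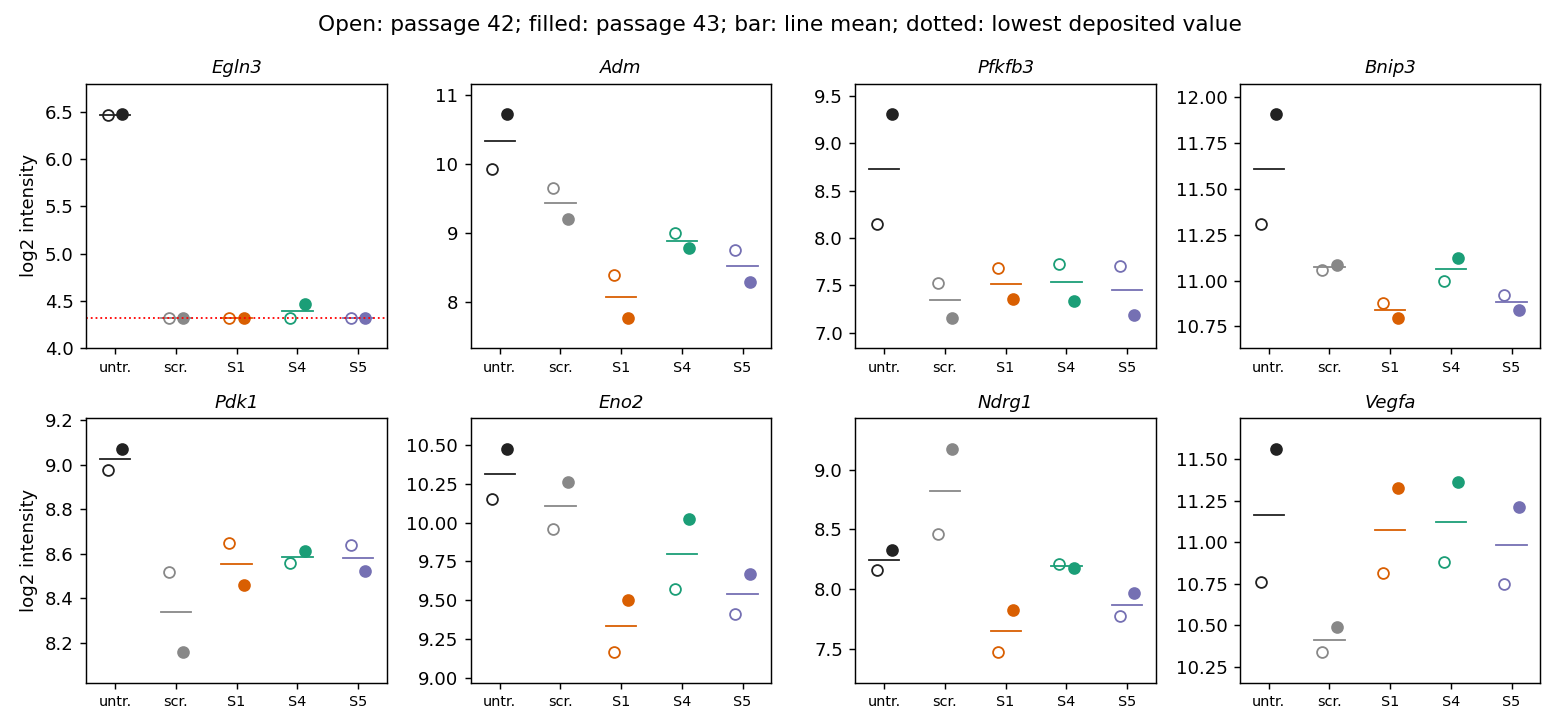
Log2 intensity of 8 genes in the 5 lines (untr., untransfected; scr., scrambled), with open circles for passage 42, filled circles for passage 43, bars for the mean of the 2 arrays and a dotted line at the lowest deposited value, 4.32; the vertical scale differs between panels and does not start at 0. The untransfected line is highest in Egln3, Adm, Pfkfb3, Bnip3 and Pdk1, the scrambled line in Ndrg1, and the scrambled line is lowest in Vegfa.

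The second question was what changed from passage 42 to passage 43. With line as a block, Eno2 (0.34, SE 0.06, limma adjusted p = 0.0238), Ldhb (0.32, SE 0.06, limma adjusted p = 0.0287) and Vegfa (0.48, SE 0.09, limma adjusted p = 0.0318) rose, where 2.43% of all features were called higher. Tpi1 fell (-0.31, SE 0.06, limma adjusted p = 0.0418), where 3.09% were called lower. Each of these 4 moved the same way in 5 of 5 lines. Vegfa differed between passages by 0.80 in the untransfected line, 0.15 in the scrambled line and 0.46 to 0.51 in the clones, and Tpi1 by -0.45, -0.15 and -0.35 to -0.26. Of the 32 members, 7 were lower at passage 43 in all 5 lines (21.9%, against 11.0% of all features), namely Tpi1, Gapdh, Pgk1, Pgam1, Eno1, Ldha and Ankrd37, and 5 were higher (15.6%, against 9.57%), namely Pfkm, Eno2, Ldhb, Hif1a and Vegfa.

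These calls depended on few arrays. Without both arrays of the untransfected line, or without either of them, Tpi1 was lost (-0.27, adjusted p = 0.0557) and Pfkfb3 (-0.40), Adm (-0.44) and Mxi1 (0.61) were called, which gave 6 calls. Without a scrambled array only Vegfa was called (0.56), and without any 1 clone array none was, since a line with 1 array adds nothing to a comparison within lines. Markers of cycling cells fell over the same passages: 7 of 10 were called lower, with a median of -0.67 over the 10, against -0.0012 over all features. The summed intensity of those 10 markers went from 16419 to 8785 in the untransfected line. Whatever the passage, it lay between 17629 and 18739 in the scrambled line and between 11047 and 16999 in the clones. In the scrambled line Mki67 (10.85 and 10.94), Mcm2 (10.78 and 10.81) and Pcna (12.53 and 12.62) were slightly higher at passage 43, and the other markers were lower. None of the 10 was at the lowest deposited value. The part of this in the passage changes of the glycolytic enzymes was not tested.

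**Figure D4:**
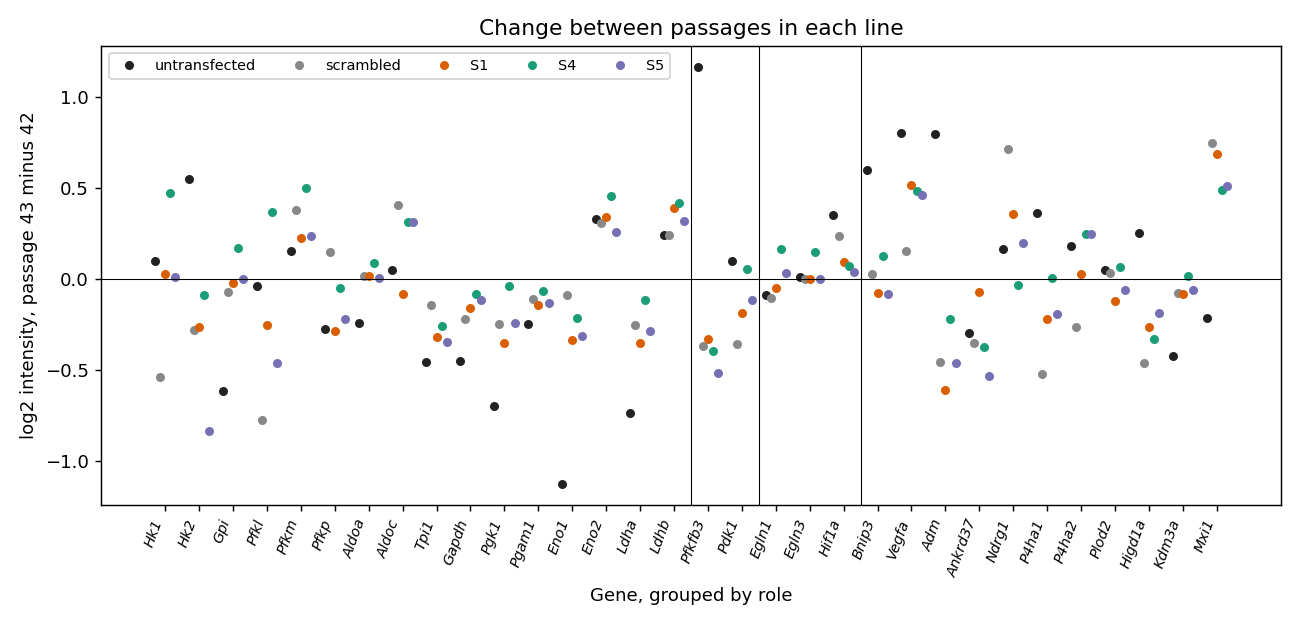
Difference between passage 43 and passage 42 in log2 intensity for the 32 genes (grouped by role, separated by vertical lines), 1 point per line and no error bar because each point is 1 array minus 1 array. The untransfected line is at -1.13 in Eno1 and at 1.16 in Pfkfb3, with the other 4 lines at -0.34 to -0.09 and -0.52 to -0.33.

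In the untransfected line the 2 passages differed most, and in both directions. Over all features the SD of the change was 0.37 in that line, 0.32 in the scrambled line and 0.26 to 0.27 in the clones. Eno1 was at -1.13 between passages there, Ldha at -0.74, Pgk1 at -0.70, Gpi at -0.62, Tpi1 and Gapdh at -0.45 each and Kdm3a at -0.42. Pfkfb3 was at 1.16, Vegfa at 0.80, Adm at 0.79, Bnip3 at 0.60, Hk2 at 0.55 and P4ha1 at 0.36. Both roles held changes in either direction: the median was -0.25 over 16 enzymes (6 up, 10 down, from -1.13 to 0.55) and 0.18 over 11 other targets (8 up, 3 down, from -0.42 to 0.80), beside 0 over all features (13505 up, 13444 down). The difference between the roles was not tested. In the clones and the scrambled line the medians of the 16 enzymes were -0.15 to 0.02 and those of the 11 targets -0.08 to 0.02. Adm, Pfkfb3, Hk2 and Higd1a were higher at passage 43 in the untransfected line and lower in each of the other 4 lines. A change in the untransfected line opposite to that in all 3 clones was found in 6 of 32 members (18.8%). This was near the share of all features (16.7%). Members that differed by at least 0.5 (log2) between passages numbered 9 of 32 in the untransfected line (28.1%, against 14.8% of all features), 5 in the scrambled line (15.6%, against 9.68%), 3 in S1 (9.38%, against 5.35%), 0 in S4 (against 5.53%) and 4 in S5 (12.5%, against 6.26%). Second features repeated the changes of Pgk1 (-0.91) and Vegfa (0.78), while those of Pfkfb3 gave 0.29 and -0.08. The second feature of Higd1a was higher at passage 43 in S1 (7.44 and 7.51) and S5 (7.49 and 7.63) too.

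Whether the untransfected line's passage change differed from that of the other 4 lines was tested after these values had been seen. None of the 32 members passed (limma, 1 line against 4), and neither did any feature of the array, at 0%. At an unadjusted p under 0.05 there were 14 members (21.3% of all features were at that level). The lowest adjusted p of a member was 0.0766 for Pfkfb3 (a difference of 1.57, SE 0.12), followed by 0.0790 for Adm (1.23), 0.0835 for Eno1 (-0.89) and 0.0898 for Mxi1 (-0.82). The comparison by group set the passage change of the 3 clones against that of the 2 control lines. None of the 32 members passed there, beside 0.0182% of all features called. No member had an unadjusted p under 0.05 in limma, beside 8.34% of all features.

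The other genes of these pathways were taken from 6 further lists, and most did not pass a test. Among 12 measured HIF subunits and regulators, Arnt2 and Cited2 rose in the clones against the control lines (2 of 12, and 0 lower, where 0.603% of all features were called higher and 0.294% lower). Arnt2, a partner of the HIF alpha subunits, was at 6.54 and 5.95 in the untransfected line, 6.61 and 6.92 in the scrambled line, 8.73 and 9.67 in S1, 8.01 and 8.79 in S4 and, in S5, 8.42 and 9.23. All clone arrays were above all control arrays, by 2.30 on line means (SE 0.28, limma adjusted p = 0.0498). Cited2, which competes with HIF for its coactivators, was at 10.28 to 10.60 on the control arrays and 11.24 to 11.75 on the clone arrays, a difference of 0.98 (SE 0.12, limma adjusted p = 0.0484). Both were also called against each control line. Arnt, the usual partner of Hif1a, was higher than in the untransfected line by 0.53 in the clones (limma adjusted p = 0.00579) and by 0.43 in the scrambled line (limma adjusted p = 0.0345).

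Of 32 measured other hypoxia targets outside the members, 1 was called between the clones and the control lines (0.603% of all features higher, 0.294% lower): Edn1, the vasoconstrictor endothelin, rose by 1.50 (SE 0.18, limma adjusted p = 0.0488). Car9, the cell-surface carbonic anhydrase often used as a hypoxia marker, was at 10.51 and 10.71 in the untransfected line, 9.85 and 8.78 in the scrambled line and 11.37 to 11.84 on the clone arrays. It was higher in the clones than in the scrambled line by 2.22 (limma adjusted p = 0.00190) and lower in the scrambled than in the untransfected line (-1.30, limma adjusted p = 0.0463). Wsb1, part of a ubiquitin ligase, was also higher in the clones than in the scrambled line (0.42, limma adjusted p = 0.0239), so that 2 of 32 were higher and 0 lower there, beside 3.93% and 2.97% of all features. Against the untransfected line 3 of the 32 were higher in the clones, Edn1 (1.63), Lox (0.98), which crosslinks collagen, and Selenbp1 (0.65), and none was lower, beside 4.12% higher and 4.5% lower over all features. The scrambled line had 1 of the 32 higher than the untransfected line (Lox, 0.86) and 3 lower (Dusp1 at -2.10, Car9 and Wsb1), beside 2.23% and 3.87%. With passage 3 of the 32 fell, Tfrc (-1.05), Loxl2 (-0.60) and Jmjd6 (-0.46), and none rose, where 3.09% of all features fell and 2.43% rose.

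Among 16 measured glycolytic and glycogen enzymes outside the members, Pgm1, which links glycogen to glycolysis, was at 11.17 and 11.16 in the scrambled line and at 9.37 to 9.97 on the other 8 arrays. It was lower in the clones than in the scrambled line (-1.67, SE 0.13, limma adjusted p = 0.000312). The untransfected line stood apart in Pygl, the liver glycogen phosphorylase, which was lower in the clones (-1.56, limma adjusted p = 0.00116) and in the scrambled line (-1.40, limma adjusted p = 0.00666). Gbe1, the glycogen branching enzyme, was lower in the clones too (-0.43, limma adjusted p = 0.0398) and Pgam2 was higher (0.47, limma adjusted p = 0.0272), so that 3 of 16 were called in the clones against the untransfected line (4.12% of all features higher, 4.5% lower) and 4 of 16 in the scrambled line (2.23% higher, 3.87% lower). Of 12 measured genes of pyruvate entry, Pdk3 was lower in the clones (-1.04, limma adjusted p = 0.00566) and in the scrambled line (-1.17, limma adjusted p = 0.0104) than in the untransfected line, and Pdha1, a subunit of pyruvate dehydrogenase, was higher in the clones (0.49, limma adjusted p = 0.0239). With passage Pdk2 (0.44) and Ldhd (0.38) rose, where 2.43% of all features rose and 3.09% fell. In the pentose phosphate pathway (6 measured), Tkt, the transketolase, was lower in the clones (-0.45) and in the scrambled line (-0.71) than in the untransfected line, and Pgd fell with passage (-0.40), as did Pfkfb1 (-0.29) of the glycolytic list. Of 8 glucose and lactate transporters, 1 was called, Slc2a8, lower in the clones than in the untransfected line (-0.77, limma adjusted p = 0.0205). The same comparison called 2 of 12 genes of pyruvate entry and 1 of 6 of the pentose phosphate pathway. Of all features it called 4.12% higher and 4.5% lower. The scrambled line had 1 of 12 and 1 of 6 lower than the untransfected line, where 3.87% of all features were lower. The main glucose transporter Slc2a1 was at 9.71 and 9.76 in the untransfected line and 8.91 to 9.42 on the other 8 arrays, and its difference from the clones did not pass (-0.53, limma adjusted p = 0.0674).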

How the data were processed

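The 10 arrays (5 lines at 2 passages) came as 1 deposited table of linear intensity values, 20 to 30192, made by the authors by RMA, per the submitters' processing notes. Its version, and whether values were returned from log2, is not given in the sources used here. Of the deposited values, 14.6% were exactly 20. A log2 table had been assumed in the design, so log2 of the deposited intensity was taken. Of 31099 features, 51 array controls without a gene and 3522 at 20 on all arrays were removed, which left 27526 for testing (19208 with 1 symbol, 399 with several, 7919 with none). Names came from the platform annotation.

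Tests used limma 3.58.1 in R 4.3.3 (eBayes, Benjamini-Hochberg adjusted p under 0.05 over all tested features). Clones against controls used 5 line means (3 residual degrees of freedom), line comparisons 10 arrays (5), and passage a line block (4). The number of arrays limits the precision, and the sources used here state no slide or scan batch. Passage changes correlated above 0.1 between all 10 pairs of lines (0.136 to 0.648 across features, which are not independent), so passage numbers were taken to pair samples. Procedures were tested on simulated data. Values on every array are given for members called in a comparison, those of largest line range or passage change, and 8 genes listed by name; from the other lists, called genes were named. Of the latter, Slc2a1 was chosen after its values were seen. Members and lists were chosen with earlier results of these data known. Alternatives were normalization, filters on low values, a pseudocount, the choice of feature, blocks and leaving out arrays or lines.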

Additional observations from a re-analysis of the deposited data

Results flagged for a closer look

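The passage changes of the 5 lines were searched for 1 line far from the other 4, by the gap to the nearest line over the whole range. The SD of the change differed between lines (0.26 to 0.37), so the usual rate of about 1 in 20 groups, which assumes normal values of equal spread, does not hold here. The level used was a gap above 0.71. It was passed by 7 of 32 members (21.9%, against 10.8% of all features), and the far line was the untransfected line in 6 of them (18.8%, against 6.10% of all features). Its change, passage 43 minus 42 on the log2 scale, was 1.16 in Pfkfb3, 0.79 in Adm, -1.13 in Eno1, -0.42 in Kdm3a, -0.25 in Aldoa and -0.22 in Mxi1. A second feature of Mxi1 went from 7.62 to 7.82 in the untransfected line and so did not repeat its change. In the seventh, Egln3, the far line was S4 at 0.14, where the other 7 arrays outside the untransfected line were at the lowest deposited value. Each change is 1 array minus 1 array, and the cause was not tested.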

How the results depend on the processing

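None of the called member differences recomputed under each alternative changed its direction; differences that were not called were not followed in this way. Member calls between the clones, and in the passage change of clones against controls, stayed at 0 of 32 under each alternative. Each line has 2 arrays, which limits the precision. For the clones against both controls, the line as a random block gave 2 calls (Eno2 and Adm), with or without the replicate block, and leaving out 1 line or passage gave 0 to 6. The random block fits set the correlation between passages of a line at 0.05, or 0.21 with the replicate block, for all features. They thus counted the arrays of a line as largely independent. Without a filter on low values there were 0 calls against the scrambled line, 2 against the untransfected line, 1 for the scrambled against the untransfected line and 2 for passage, in place of 1, 6, 2 and 4. The replicate block, which uses the pairing by passage, gave 5 calls for the clones against the scrambled line and 5 for the scrambled against the untransfected line, and changed no other member call between lines in the main comparisons. Leaving out 1 array gave 0 to 1 calls against the scrambled line, 1 to 7 against the untransfected line, 1 to 7 between the control lines and 0 to 6 for passage. Egln3 kept its calls in each such fit. It was not tested under the stricter filter.

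Over the whole array the counts moved more. The clones against both controls gave 247 calls in the main test, 14 without a filter, 1315 with the line as a random block (1205 with the replicate block too) and 0 to 2969 without 1 line or passage. The other counts, without a filter and with the replicate block, were 1229 and 3155 (main 1900) against the scrambled line, 1458 and 4136 (main 2374) against the untransfected line, 1014 and 3602 (main 1679) between the control lines, and 4 and 25 (main 9) between the clones. For passage the count was 1520, and 625 without a filter. The passage change of clones against controls gave 5, and 2 without a filter. Leaving out 1 array moved them to 669 to 2104, 606 to 3392, 608 to 3225, 4 to 8, and 0 to 1698 for passage. The passage comparison without the untransfected line, and the test of that line's passage change against the other 4, were chosen after seeing the data.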
